A study of Homo sapiens with 12 samples.

Results

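The genes described here are 10 genes around YAP and TEAD in HCT116, a human colorectal carcinoma cell line: the coactivator genes YAP1 and WWTR1, the DNA-binding partner TEAD1, and the target genes CCN1, CCN2, AMOTL1, AMOTL2, AJUBA, LATS2 and ANKRD1. They were chosen by name, by matching Ensembl identifiers to symbols in the 5 tables of group comparisons. 8 of the 10 have a row among the 15074 genes of those tables. CCN2 (ENSG00000118523) and ANKRD1 (ENSG00000148677) have none and their levels were not analysed here.

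YAP, made from YAP1, and its paralogue TAZ, made from WWTR1, are coactivators that bind no DNA themselves and act on genes through TEAD factors, of which TEAD1 is one. The Hippo pathway restrains them: the kinases MST1 and MST2, encoded by STK4 and STK3, activate LATS1 and LATS2, which phosphorylate YAP and TAZ so that they stay in the cytoplasm or are degraded. CCN1 and CCN2 encode secreted matricellular proteins and ANKRD1 a nuclear ankyrin repeat protein, and all 3 are widely used readouts of YAP activity. AMOTL1 and AMOTL2 are angiomotin-like scaffolds that hold YAP at junctions, and AJUBA is a LIM protein that inhibits LATS kinases. LATS2, AMOTL1, AMOTL2 and AJUBA are thus both targets and regulators of YAP in the textbook pathway.

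Whole-transcriptome RNA-seq covered 12 libraries in 4 groups of 3. FH-5xA is the AGO2 knockout line given back tagged AGO2 in which a cluster of phosphorylated residues was changed to alanine. FH-WT is the same knockout given back tagged wild-type AGO2, AGO2 knockout is the line with no such transgene, and parental cells are the starting line. AGO2 is the Argonaute protein through which microRNAs repress mRNAs, and the series asks how its phosphorylation bears on that repression. The FH-5xA, FH-WT and AGO2 knockout groups thus share the loss of endogenous AGO2, and the sources used here do not name the promoter of the transgenes. Each group is 1 line, and its 3 libraries are wells of that line seeded with 500000 cells and collected after 48 h, so p-values measure the spread between wells and not between independently made lines.

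The tables give fold changes and tests per group pair and no value per library, so depth is unknown and each level below is a fitted group value. AGO2 RNA itself was lower in the knockout than in parental cells, by a log2 fold change of -0.35 ± 0.07 (SE) in the authors' deposited table, and higher than in the knockout in FH-5xA (0.73 ± 0.07) and FH-WT (0.75 ± 0.07). Of the 7 epithelial carcinoma markers 6 have a row, with a summed fitted level of 2225 CPM (counts scaled to library size) in FH-5xA, 2058 in FH-WT, 2363 in AGO2 knockout and 2878 in parental cells. EPCAM, CDH1, KRT8 and KRT18 were fitted lower in the knockout than in parental cells, and KRT19 and CLDN4 higher. CDH1 stood at 21.3, 15.8, 25.0 and 49.1 CPM in the same order of groups. None of the 5 blood and 4 endothelial markers has a row. Of the 5 fibroblast markers only COL1A1 has a row, at 4.99, 2.89, 2.76 and 1.83 CPM in the same order of groups; the part of these shifts in the results was not tested.

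Promoters were read from RefSeq (GRCh38.p14) as 300 bases, 250 before and 50 after an annotated start, which need not be the outer start of the gene. They were searched on both strands for GGAATG, the core letters that TEAD factors bind. 8 of the 10 genes have such an entry, with 11 promoters in all, and 6 of the 11 hold at least 1 match. The same letters occur in 14.0% of all 35116 promoters of this length and in 11.3% of the 14838 promoters of measured genes. The windows below show every match in the 6 genes that hold one, because the group is defined by TEAD factors; capitals mark the motif, or CATTCC where it lies on the other strand.
YAP1, chr11:102110273-102110302, plus strand: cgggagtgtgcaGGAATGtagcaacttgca
CCN2, chr6:131951524-131951553, minus strand: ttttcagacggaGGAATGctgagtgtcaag
CCN2, chr6:131951459-131951488, minus strand: ggaaggtggggaGGAATGcgaggaatgtcc
CCN2, chr6:131951450-131951479, minus strand: ggaggaatgcgaGGAATGtccctgtttgtg
AMOTL2, chr3:134374499-134374528, minus strand: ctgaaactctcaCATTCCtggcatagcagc
AJUBA, chr14:22976884-22976913, minus strand: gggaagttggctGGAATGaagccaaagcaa
LATS2, chr13:21061560-21061589, minus strand: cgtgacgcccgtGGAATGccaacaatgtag
ANKRD1, chr10:90921290-90921319, minus strand: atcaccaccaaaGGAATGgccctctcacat
ANKRD1, chr10:90921198-90921227, minus strand: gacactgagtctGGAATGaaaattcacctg
CCN2 and ANKRD1, the pair with no row, hold the most matches, 3 and 2. The last 2 windows of CCN2 overlap, since the matches at -104 and -95 from its start lie side by side. The LATS2 match lies just after the start, at 9 to 14. AMOTL2 and AJUBA have 2 promoters each and hold their match in 1 of them, the one further inside the gene. Neither of the 2 WWTR1 promoters nor the AMOTL1 promoter holds these letters, which says nothing of TEAD binding elsewhere at those genes. Those promoters lie inside the gene spans given below, so the outer starts of WWTR1 and AMOTL1 were not searched. CCN1 and TEAD1 have no entry.

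The members' 3′ untranslated regions (UTRs) were searched for matches to bases 2 to 8, the seed, of 19 microRNAs with 16 distinct seeds. 7 of the 8 measured members hold at least 1 match, as do 78.4% of the 11736 UTRs of measured genes. Together the 8 hold 51 matches in 27130 bases, or 1.88 per 1000 bases, near the 1.79 per 1000 bases pooled over those UTRs. The rate was 3.82 in AMOTL2, 3.81 in LATS2, 2.64 in AJUBA, 2.01 in YAP1, 1.68 in AMOTL1, 1.40 in WWTR1, 1.24 in TEAD1 and 0 in CCN1. The mature sequences below, from RefSeq (GRCh38.p14) with the seed in capitals, are those whose seed is matched 2 times in the UTR of YAP1, WWTR1, LATS2 or AMOTL2, chosen after the matches were seen; TEAD1, AMOTL1 and AJUBA hold repeated matches to other seeds, which are not shown.
miR-372-3p: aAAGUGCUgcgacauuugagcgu
miR-141-3p: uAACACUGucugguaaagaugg
miR-200a-3p: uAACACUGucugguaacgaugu
miR-21-5p: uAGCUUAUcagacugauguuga
miR-24-3p: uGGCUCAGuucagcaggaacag
miR-141-3p and miR-200a-3p share a seed. The sites below come from GENCODE 29 transcripts (GRCh38), each written as the transcript reads with the match to the seed in capitals.
WWTR1, first miR-141-3p/200a-3p match, chr3:149518404-149518432: ctaacaaaactcagCAGTGTTactgtatt
WWTR1, second miR-141-3p/200a-3p match, chr3:149517734-149517762: aagtaatttttagaCAGTGTTtcaccgta
YAP1, first miR-141-3p/200a-3p match, chr11:102232466-102232494: gcccagttatacctCAGTGTTgtagcagt
YAP1, second miR-141-3p/200a-3p match, chr11:102233016-102233044: gaattcataccaatCAGTGTTgaaactca
YAP1, first miR-21-5p match, chr11:102231235-102231263: tgtgcatgacagaaATAAGCTttatagtg
YAP1, second miR-21-5p match, chr11:102231640-102231668: attaactcttcaatATAAGCTatgaagta
LATS2, first miR-372-3p match, chr13:20974594-20974622: tacagtttagaaagAGCACTTattttgtt
LATS2, second miR-372-3p match, chr13:20974494-20974522: tgtattttatccatAGCACTTattcacat
AMOTL2, first miR-24-3p match, chr3:134357669-134357697: ggtgcttcaggactCTGAGCCattctctc
AMOTL2, second miR-24-3p match, chr3:134356751-134356779: tttggtcataaaccCTGAGCCagatgaaa
Both coactivator genes hold the CAGTGTT match 2 times, and 21.6% of the UTRs of measured genes hold it at least 1 time. Neither this share nor those that follow allow for UTR length. The UTRs of YAP1 and WWTR1 are 3483 and 3570 bases long, against a median of 1396 for measured genes. The match to miR-21-5p is in 9.96% of UTRs, that to miR-372-3p in 25.5% and that to miR-24-3p in 18.3%. These are matches of letters, and the levels of the microRNAs were not analysed here.

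**Figure D1:**
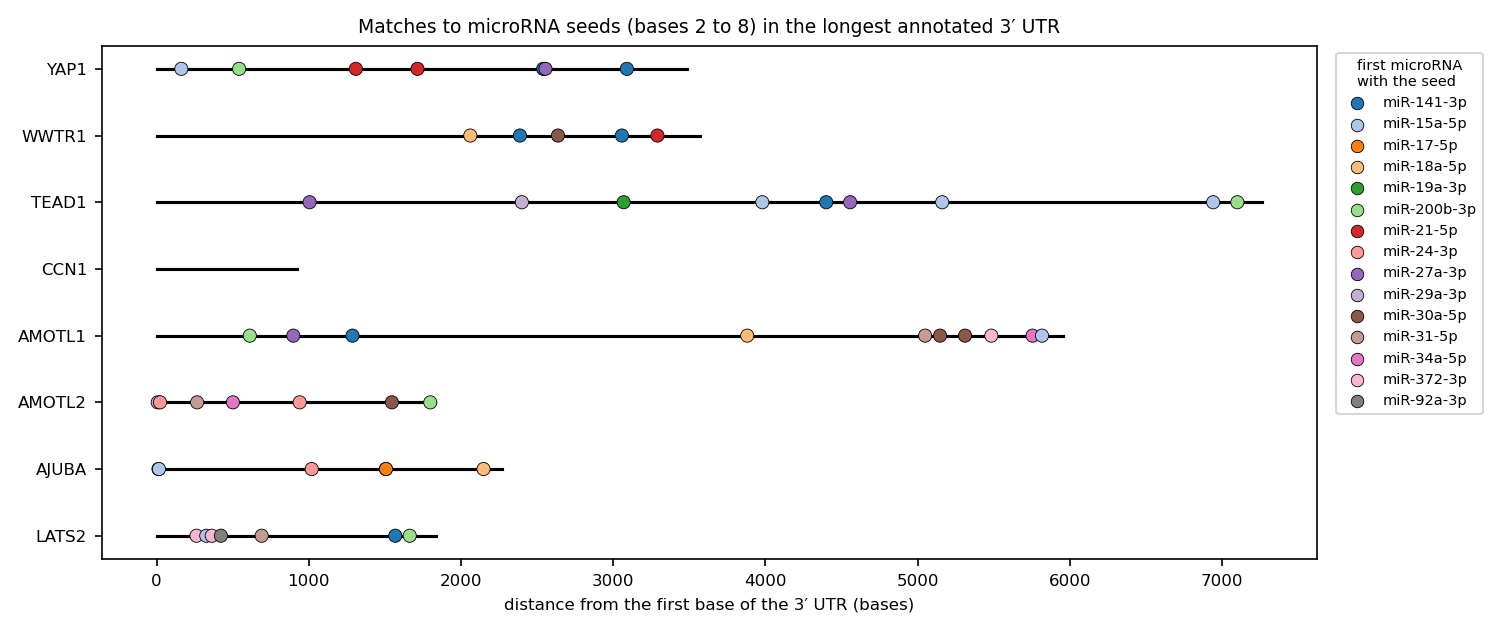
Matches to microRNA seeds along the longest annotated 3′ UTR of the 8 measured genes (black lines; x axis, bases from the first base of the UTR). Each dot is 1 match, coloured by the first microRNA with that seed; TEAD1 has the longest UTR with 9 matches, CCN1 has none, and LATS2 carries 7 in 1838 bases.

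Against parental cells, the largest shift of the group was in WWTR1 in all 3 edited lines, while YAP1, TEAD1 and AMOTL2 passed the test in no comparison. Genes were called at a deposited false discovery rate under 0.05. In bulk RNA, a shift in the share of cells that make a transcript and a shift in its amount per cell cannot be told apart. In AGO2 knockout against parental cells 3 of the 8 measured members were called, all higher (WWTR1, CCN1 and LATS2), while 44.4% of all genes were called, 23.2% higher and 21.2% lower, so 3 of 8 is near the background. FH-5xA against parental gave 4 higher and 0 lower, adding AMOTL1 to those 3, while 43.8% of all genes were called, 22.9% higher and 20.9% lower. FH-WT against parental gave the same 4 higher and AJUBA lower, while 34.4% of all genes were called, 18.3% higher and 16.1% lower. These 3 comparisons share the parental libraries, so their counts are not independent. The median log2 fold change of the 8 in the authors' deposited tables was 0.08 in FH-5xA, 0.15 in FH-WT and 0.12 in AGO2 knockout, each against parental, while the median of all genes lay between -0.01 and 0.00.

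Few of the 8 were called in the lines with AGO2 given back against the knockout, which is near the share of all genes called. Against the knockout, 0 of 8 were called in FH-5xA, where 11.3% of all genes were called (5.04% higher and 6.24% lower), and none had an unadjusted p under 0.05 in the authors' deposited edgeR table. In FH-WT against the knockout 1 of 8 was called, WWTR1, which was lower; of all genes 10.1% were called, 4.21% higher and 5.85% lower. At the stricter rate of 0.01, FH-5xA against parental kept 2 of the 8, WWTR1 and LATS2, while 33.7% of all genes were called, 18% higher and 15.7% lower. FH-WT against parental kept 4 (WWTR1, CCN1, AMOTL1 and LATS2), while 24.6% of all genes were called, 13.4% higher and 11.2% lower. AGO2 knockout against parental kept 2 (WWTR1 and CCN1), while 34% were called, 18.2% higher and 15.7% lower. Against the knockout none of the 8 was called at 0.01, while in FH-5xA 5.94% of all genes were called (2.29% higher and 3.65% lower) and in FH-WT 4.56% (1.46% higher and 3.1% lower). In FH-5xA minus FH-WT none of the 8 was called either, while 1.21% of all genes were (0.644% higher and 0.564% lower). The medians of the 8 were -0.03 in FH-5xA and -0.06 in FH-WT, against 0.01 for all genes in both deposited tables.

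**Figure D2:**
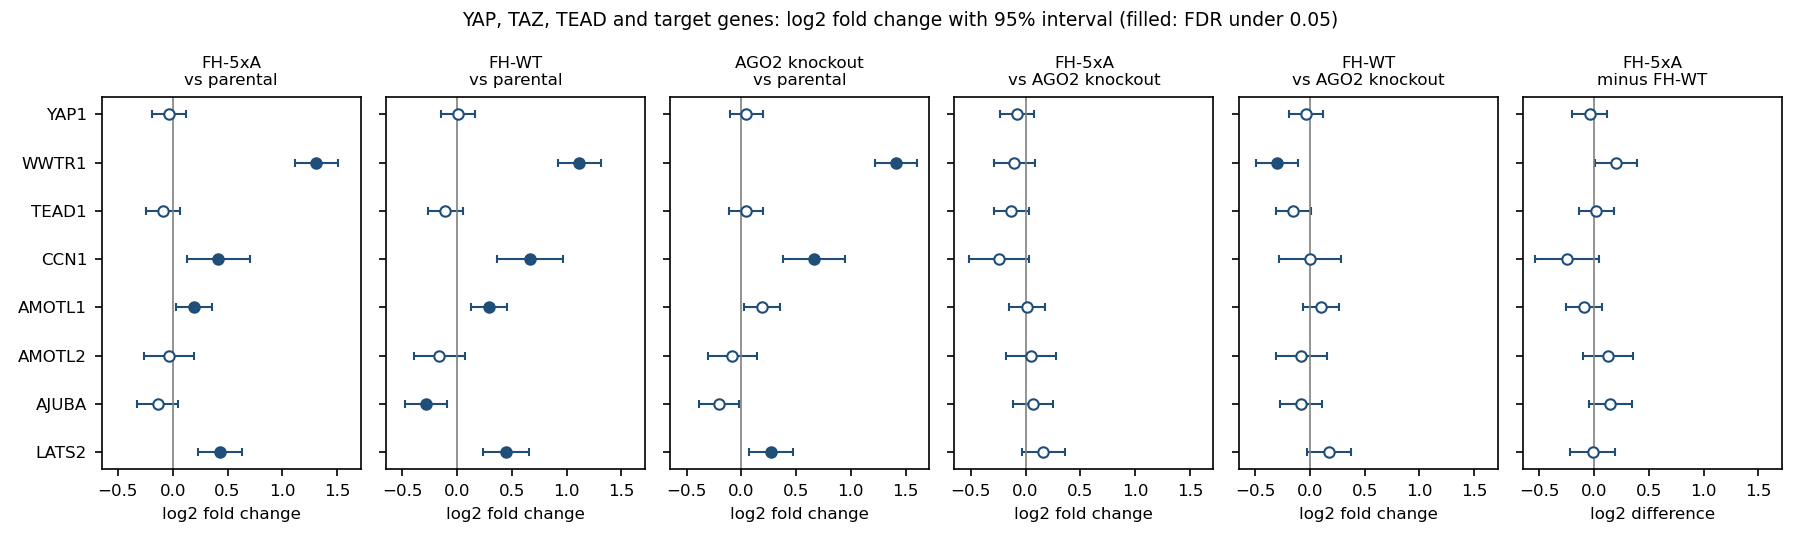
Log2 fold change of the 8 measured genes in the 5 deposited comparisons and log2 difference between FH-5xA and FH-WT (x axes; bars, 95% intervals; filled points, false discovery rate under 0.05). WWTR1 stands at 1.31 in FH-5xA, 1.12 in FH-WT and 1.41 in AGO2 knockout against parental cells, and none of the 8 is filled in FH-5xA minus FH-WT.

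WWTR1 (ENSG00000018408, chr3:149517235-149736714, minus strand), which encodes TAZ, was fitted at 95.2 CPM in FH-5xA, 83.1 in FH-WT, 102 in AGO2 knockout and 38.4 in parental cells. The 3 edited lines lie above parental cells, with the knockout highest and FH-WT lowest of the 3. Its log2 fold change in AGO2 knockout against parental cells was 1.41 ± 0.10 in the authors' deposited table, which is 2.66-fold, with a false discovery rate of 6.22e-44. FH-5xA stood 1.31 ± 0.10 above parental (false discovery rate 9.60e-38) and FH-WT 1.12 ± 0.10 (1.21e-26) in the authors' deposited tables. Against the knockout, FH-5xA was not called, at -0.10 ± 0.10 with a false discovery rate of 0.557 in the authors' deposited table. In FH-WT WWTR1 fell by 0.30 against the knockout (SE 0.10, false discovery rate 0.0288 in the authors' deposited table), to a level 2.17-fold that of parental cells. The 20 measured genes nearest to WWTR1 on chromosome 3 had a median of 0.05 in AGO2 knockout against parental cells, which leaves 1.36 relative to them.

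YAP1 (ENSG00000137693, chr11:102110461-102233423, plus strand) was fitted at 167 CPM in FH-5xA, 172 in FH-WT, 177 in AGO2 knockout and 171 in parental cells. No pair of groups was called, with 95% intervals of the log2 fold change in AGO2 knockout against parental of -0.11 to 0.20 and in FH-5xA against parental of -0.19 to 0.12. Per kilobase of exon, the scale on which genes can be compared, YAP1 exceeded WWTR1 by 2.35 times in FH-5xA, 2.77 times in FH-WT and 2.31 times in AGO2 knockout, against 5.95 times in parental cells. On that scale WWTR1 lay at percentile 68.7, 64.9 and 70.0 of measured genes in those 3 lines and at 46.3 in parental cells. YAP1 lay between percentiles 85.2 and 86.7 in all 4. YAP1P1, a processed copy of YAP1 that could take some of its reads, was fitted at 1.10 CPM in FH-5xA, 1.44 in FH-WT, 1.35 in AGO2 knockout and 1.46 in parental cells.

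TEAD1 (ENSG00000187079, chr11:12674591-12944483, plus strand), the factor that brings YAP and TAZ to DNA, was fitted at 234 CPM in FH-5xA, 230.5 in FH-WT, 256 in AGO2 knockout and 248 in parental cells. It was called in no comparison. The lowest log2 fold change was -0.15 ± 0.08 in FH-WT against the knockout, with a false discovery rate of 0.243 in the authors' deposited table. Per kilobase TEAD1 was the highest of the 4 TEAD genes, at 22.7 in FH-5xA, 22.4 in FH-WT, 24.9 in AGO2 knockout and 24.1 in parental cells. TEAD4 came next, at 10.7, 9.76, 8.61 and 9.84 CPM per kilobase in the same order. TEAD2 stood at 8.46, 7.86, 8.49 and 8.46, within the error of TEAD4 in the knockout, and TEAD3 lowest at 4.05, 3.90, 3.72 and 3.33 CPM per kilobase. TEAD4 was the TEAD gene that was called: it was higher in FH-5xA than in the knockout, by 0.31 ± 0.11 with a false discovery rate of 0.0357 in the authors' deposited table. In FH-WT against the knockout TEAD4 stood at 0.18 ± 0.11 in the authors' deposited table and was not called, and FH-5xA minus FH-WT was 0.13 ± 0.11 with a chi-square adjusted p of 0.547.

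**Figure D3:**
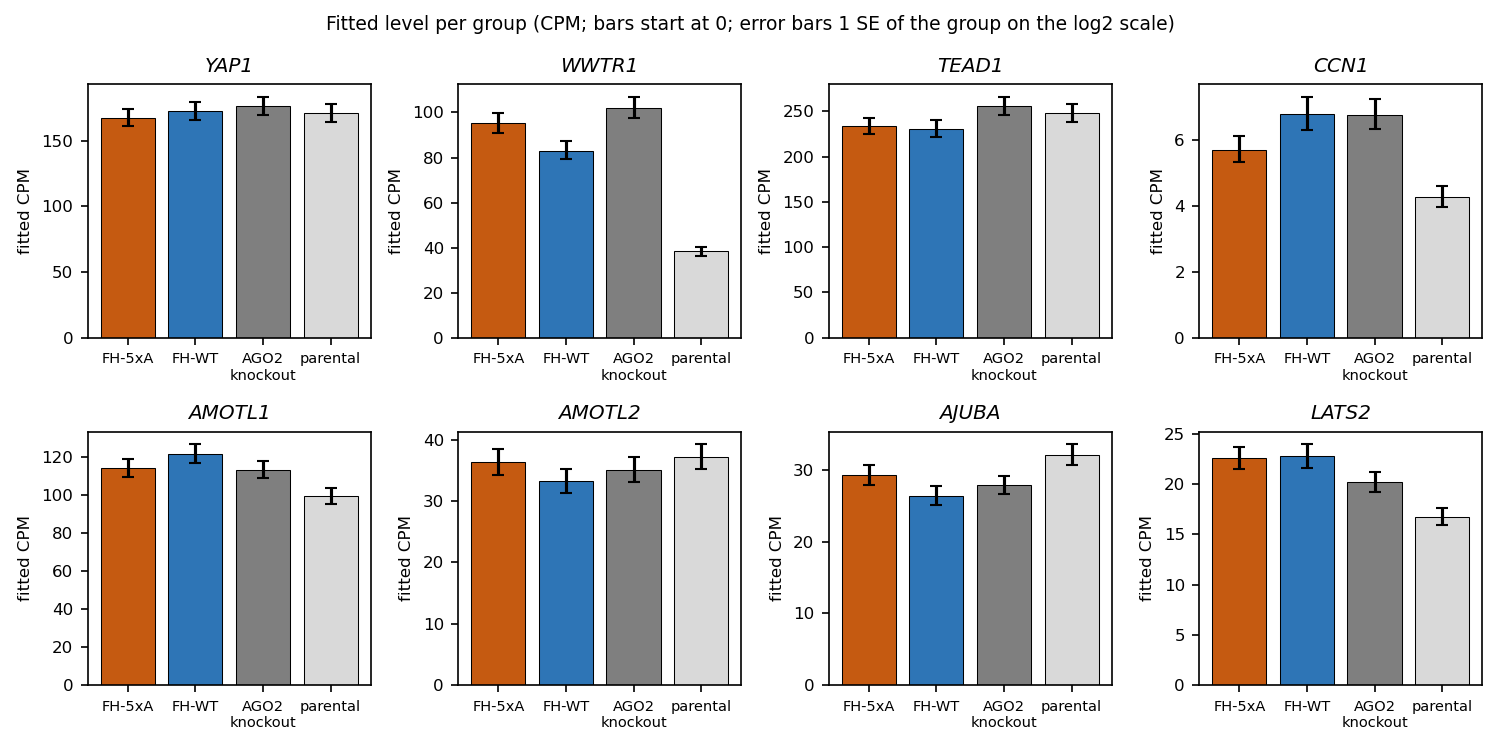
Fitted level of each measured gene in FH-5xA, FH-WT, AGO2 knockout and parental cells (bars, CPM; error bars, 1 SE of the group on the log2 scale). WWTR1 stands between 83.1 and 102 CPM in the 3 edited lines and at 38.4 in parental cells, while YAP1 stays between 167 and 177 CPM.

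CCN1 (CYR61, ENSG00000142871, chr1:85580761-85583962, plus strand), which encodes a secreted protein of the matrix, was fitted at 5.70 CPM in FH-5xA, 6.78 in FH-WT, 6.76 in AGO2 knockout and 4.27 in parental cells. Per kilobase of exon it had the lowest level of the 8, at 2.32 CPM in FH-5xA, 2.76 in FH-WT, 2.75 in AGO2 knockout and 1.74 in parental cells. It was higher in all 3 edited lines than in parental cells. Its log2 fold change against parental was 0.42 ± 0.15 in FH-5xA, 0.67 ± 0.15 in FH-WT and 0.66 ± 0.14 in AGO2 knockout, with false discovery rates of 0.0136, 9.91e-05 and 2.22e-05 in the authors' deposited tables. Against the knockout, FH-5xA stood at -0.25 ± 0.14, with a false discovery rate of 0.267, and FH-WT at 0.00 ± 0.15 in the authors' deposited tables. The 3′ UTR of CCN1, 920 bases long, holds no match to any of the 16 seeds. CCN1 also had the widest errors of the 8.

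AMOTL1 (ENSG00000166025, chr11:94706431-94876753, plus strand), a scaffold that binds YAP, was fitted at 114 CPM in FH-5xA, 122 in FH-WT, 113 in AGO2 knockout and 99.4 in parental cells. It was higher than in parental cells in FH-5xA, by 0.20 ± 0.08 (false discovery rate 0.0448), and in FH-WT, by 0.29 ± 0.08 (0.00314), in the authors' deposited tables. In AGO2 knockout against parental cells it stood at 0.19 ± 0.08 with a false discovery rate of 0.0565 in the authors' deposited table, short of the threshold. Centring on the median of all genes brought that rate to 0.0389.

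AMOTL2 (ENSG00000114019, chr3:134355874-134375479, minus strand), its paralogue, was fitted at 36.3 CPM in FH-5xA, 33.3 in FH-WT, 35.1 in AGO2 knockout and 37.2 in parental cells. It was called in no comparison. Its largest shift was -0.16 ± 0.12 in FH-WT against parental, with a false discovery rate of 0.303 in the authors' deposited table. AMOTL1 exceeded AMOTL2 per kilobase by 1.87 times in FH-5xA, 2.18 in FH-WT, 1.92 in AGO2 knockout and 1.59 in parental cells. AMOT, the founding angiomotin, was the lowest of the 3 at 1.26, 1.04, 1.31 and 1.36 CPM per kilobase in the same order. AMOT was lower in FH-WT than in parental cells, at -0.39 ± 0.13 (false discovery rate 0.00938 in the authors' deposited table).

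AJUBA (ENSG00000129474, chr14:22971174-22982642, minus strand), the LIM protein that restrains LATS kinases, was fitted at 29.2 CPM in FH-5xA, 26.4 in FH-WT, 27.9 in AGO2 knockout and 32.2 in parental cells. Its fitted level was highest in parental cells. Against parental it stood at -0.14 ± 0.09 in FH-5xA (false discovery rate 0.241), -0.28 ± 0.10 in FH-WT (0.0142) and -0.20 ± 0.09 in AGO2 knockout (0.0645) in the authors' deposited tables, so it was called lower in FH-WT. Relative to its 20 nearest genes the knockout value was -0.27 with a rate of 0.0119, which leaves out the error of the neighbours' median. Its relatives LIMD1 and WTIP were not called in any comparison. Per kilobase, AJUBA stood at 0.73 times LIMD1 in FH-5xA, 0.73 in FH-WT and 0.72 in AGO2 knockout, and at 0.90 times LIMD1 in parental cells.

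LATS2 (ENSG00000150457, chr13:20973032-21061547, minus strand), the kinase that phosphorylates YAP and TAZ, was fitted at 22.5 CPM in FH-5xA, 22.8 in FH-WT, 20.2 in AGO2 knockout and 16.7 in parental cells. All 3 edited lines were higher than parental cells, and the lines with AGO2 given back were not called against the knockout. Its log2 fold change against parental was 0.43 ± 0.10 in FH-5xA, 0.45 ± 0.10 in FH-WT and 0.27 ± 0.10 in AGO2 knockout, with false discovery rates of 0.000106, 0.000157 and 0.0188 in the authors' deposited tables. Against the knockout FH-5xA stood at 0.16 ± 0.10 and FH-WT at 0.17 ± 0.10, with false discovery rates of 0.33 and 0.302 in the authors' deposited tables. LATS1, its paralogue, was higher than in parental cells by 0.41 ± 0.10 in FH-5xA, 0.48 ± 0.10 in FH-WT and 0.40 ± 0.10 in AGO2 knockout in the authors' deposited tables, and was called each time. Per kilobase LATS1 exceeded LATS2 by 1.20 times in FH-5xA, 1.24 in FH-WT and 1.33 in AGO2 knockout, against 1.21 in parental cells.

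**Figure D4:**
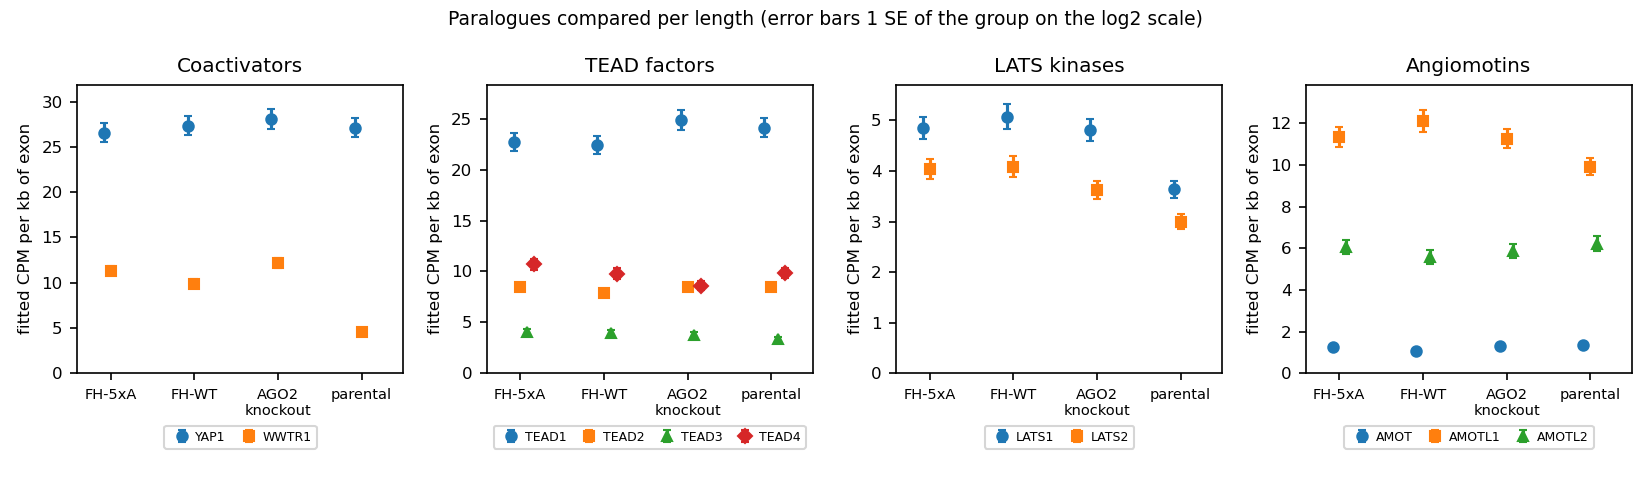
Fitted CPM per kilobase of exon (y axes) for the coactivators, the TEAD factors, the LATS kinases and the angiomotins in FH-5xA, FH-WT, AGO2 knockout and parental cells (error bars, 1 SE of the group on the log2 scale). The gap between YAP1 and WWTR1 is 2.35, 2.77, 2.31 and 5.95 times, and LATS1 and LATS2 both lie lowest in parental cells.

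FH-5xA and FH-WT were compared as the difference of their log2 fold changes against the knockout, with a chi-square test adjusted over 15072 genes, of which 4.11% were called (1.98% higher and 2.13% lower in FH-5xA). None of the 8 members was called. WWTR1 had the smallest p: it was 0.20 ± 0.10 higher in FH-5xA, with a 95% interval of 0.01 to 0.39, an unadjusted p of 0.0437 and an adjusted p of 0.242. Relative to its 20 nearest genes, WWTR1 stood at 0.30 with a chi-square adjusted p of 0.0447, which is past the threshold. That p uses the SE of WWTR1 alone and leaves out the error of the neighbours' median. CCN1 was at -0.25 ± 0.15, with an interval of -0.54 to 0.04 and an adjusted p of 0.356. AJUBA stood at 0.15 ± 0.10 (interval -0.05 to 0.34) and AMOTL2 at 0.13 ± 0.12 (interval -0.11 to 0.36). The intervals of AMOTL1 (-0.26 to 0.07), LATS2 (-0.22 to 0.19), YAP1 (-0.20 to 0.11) and TEAD1 (-0.14 to 0.18) all hold 0. A difference within those bounds is not excluded by these values.

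The wider pathway was read through 4 lists of 87 distinct genes, of which 76 have a row. The lists were chosen with earlier results of these data known, so their counts are a description. Counts below leave out the 10 genes described above. Of 22 other measured target genes, 18 were higher and 1 was lower in AGO2 knockout than in parental cells, with a median log2 fold change of 0.70, where 23.2% and 21.2% of all genes were called higher and lower. NT5E, the ecto-enzyme CD73, rose by 1.40 ± 0.07, F3, tissue factor, by 1.28 ± 0.08 and PTPN14, a phosphatase that binds YAP, by 0.76 ± 0.08 in the authors' deposited table. BIRC5, the survivin gene and also a cell cycle gene, fell by 0.76 (SE 0.08) in the authors' deposited table. In FH-5xA against parental 16 of the 22 were higher and 1 lower (22.9% and 20.9% of all genes), and in FH-WT 14 were higher and 2 lower (18.3% and 16.1% of all genes).

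Against the knockout, in FH-5xA 0 of the 22 other target genes were higher and 5 lower, where 5.04% and 6.24% of all genes were called higher and lower. In FH-WT 2 were higher and 6 lower, where 4.21% and 5.85% of all genes were called, and the medians in the authors' deposited tables were -0.12 in FH-5xA and -0.16 in FH-WT. PTPN14 fell by 0.38 (SE 0.08) in FH-5xA and by 0.36 (SE 0.08) in FH-WT in the authors' deposited tables, so it stood 0.38 and 0.40 above parental. KRT80, a keratin gene, fell by 1.12 (SE 0.26) in FH-5xA and by 1.17 (SE 0.28) in FH-WT in the authors' deposited tables. Its mean level was low, at 0.61 log2 CPM. NT5E stood at 0.17 ± 0.07 in FH-5xA (false discovery rate 0.0834) and was higher in FH-WT, by 0.36 ± 0.07 (2.25e-05), in the authors' deposited tables.

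Of the 28 other Hippo kinases, scaffolds and inhibitors, 11 were higher and 1 lower in AGO2 knockout than in parental cells, with a median of 0.12, where 44.4% of all genes were called, 23.2% higher and 21.2% lower. The atypical cadherin FAT1 rose by 0.61 ± 0.08, and the kinases LATS1 and TAOK1 by 0.40 ± 0.10 and 0.33 ± 0.08 in the authors' deposited table. FRMD6, an upstream scaffold, fell by 0.28 (SE 0.10) in the authors' deposited table. The core kinase genes STK4 and STK3 and the adaptor SAV1 were not called, at 0.08, -0.03 and 0.07 in the authors' deposited table. In FH-5xA against the knockout, where 5.04% of all genes were called higher and 6.24% lower, 0 were higher and 7 lower, among them NF2, the merlin gene (-0.36 ± 0.07), and STK4 (-0.19 ± 0.06) in the authors' deposited table; in FH-WT, where those shares were 4.21% and 5.85%, 0 were higher and PTPN14 was lower. In FH-5xA minus FH-WT 0 of the 28 were called, where 1.98% of all genes were called higher and 2.13% lower. In that difference 7 of the 28 had an unadjusted chi-square p under 0.05. The 7 lower genes in FH-5xA and the 1 in FH-WT are thus not shown to differ.

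Of the 12 other coactivator partners and TEAD factors, 8 were higher and 0 lower in AGO2 knockout than in parental cells, with a median of 0.46, where 23.2% and 21.2% of all genes were called higher and lower. JUN, the AP-1 subunit that binds with TEAD factors at enhancers, rose by 1.56 ± 0.16 and RUNX1 by 1.42 ± 0.14 in the authors' deposited table. SMAD3 and SMAD2, which TAZ binds, rose by 0.51 ± 0.10 and 0.42 ± 0.08 in the authors' deposited table. VGLL3, a TEAD cofactor at a low level (0.56 CPM in FH-5xA, 0.64 in FH-WT, 1.47 in AGO2 knockout and 0.63 in parental cells), was higher in the knockout by 1.23 ± 0.26 and lower than the knockout in FH-5xA (-1.40 ± 0.27) and in FH-WT (-1.20 ± 0.29) in the authors' deposited tables. VGLL4, a TEAD repressor, was higher in the knockout by 0.35 ± 0.10 and lower than the knockout in FH-WT (-0.36 ± 0.10) in the authors' deposited tables. In FH-5xA against the knockout VGLL4 stood at -0.22 ± 0.10 and was not called (false discovery rate 0.147 in the authors' deposited table). FH-5xA minus FH-WT was 0.14 ± 0.11 for VGLL4, with a chi-square adjusted p of 0.489.

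Of the 8 measured growth genes reported under YAP, 4 were higher and 1 lower in AGO2 knockout than in parental cells, with a median of 0.25. Of all genes 44.4% were called, 23.2% higher and 21.2% lower. So 4 of 8 higher is above the share of all genes and 1 of 8 lower is under it, on 8 genes only. BIRC3, an inhibitor of apoptosis, rose by 1.37 ± 0.10, the cyclin CCND1 by 0.90 ± 0.09 and the transcription factor KLF5 by 0.75 ± 0.12 in the authors' deposited table. MYC fell by 0.60 (SE 0.12) in the authors' deposited table. Against the knockout BIRC3 stood at -0.99 ± 0.10 in FH-5xA and -1.02 ± 0.10 in FH-WT in the authors' deposited tables, lower in both. CCND1 was lower too, at -0.37 ± 0.09 in FH-5xA and -0.26 ± 0.09 in FH-WT in the authors' deposited tables. MYC was not called in either line against the knockout.

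**Figure D5:**
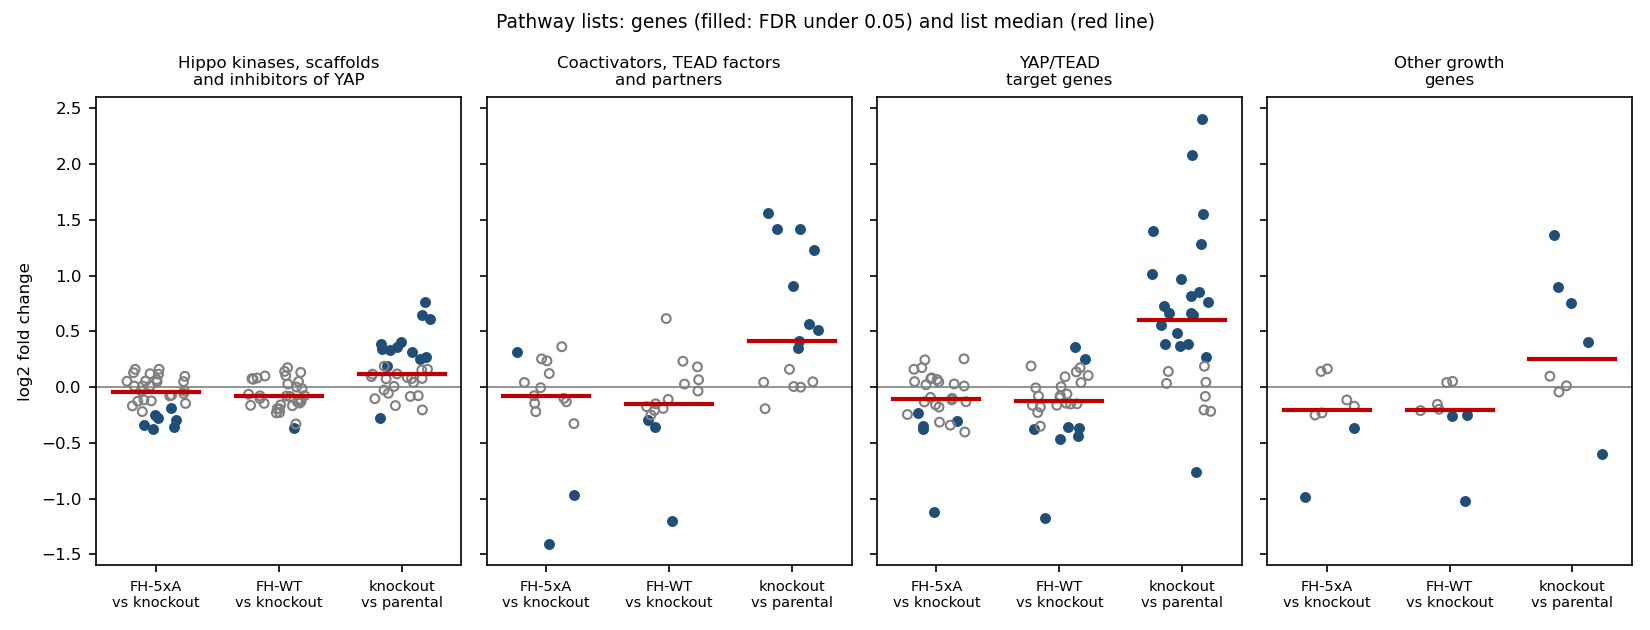
Log2 fold change of every measured gene of the 4 pathway lists, members included, in FH-5xA and FH-WT against the knockout and in AGO2 knockout against parental cells (points, filled at a false discovery rate under 0.05; red lines, list medians). Target genes have a median of 0.60 in the knockout, above the Hippo list at 0.12, and medians of -0.11 in FH-5xA and -0.12 in FH-WT.

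The genes most like LATS2 over the 3 log2 fold changes against parental, among 10356 genes with a mean of at least 3 log2 CPM, were R3HDM1 at a Euclidean distance of 0.0123, TMUB1 at 0.0235 and CYP26B1 at 0.0413. R3HDM1 stood at 0.43 in FH-5xA, 0.44 in FH-WT and 0.28 in AGO2 knockout against parental in the authors' deposited tables. For CCN1 they were NUB1 at a distance of 0.0576, ITGB1 at 0.0859 and DLD at 0.0952. ITGB1 stood at 0.44 in FH-5xA, 0.61 in FH-WT and 0.72 in AGO2 knockout in the authors' deposited tables. The 3 comparisons share the parental libraries, and the distance is a description of these groups.

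In GENCODE 29, 7 of the 8 measured members are overlapped by another annotated gene, and 5 by one on the opposite strand, such as WWTR1-AS1 and LATS2-AS1. None of these 15 overlapping genes has a row. The sources used here do not say whether counting used strand, so reads of WWTR1 or LATS2 and of their antisense partners cannot be told apart. AMOTL2 and AJUBA are overlapped on the same strand only, and CCN1 is the member with no overlapping gene on either strand.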

How the data were processed

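RNA was sequenced from 3 libraries in each of 4 groups, after ribosomal depletion and stranded library preparation per the labels' protocols. The submitters' processing notes name the tools edgeR 3.8.6, featureCounts 1.4.6, Cufflinks 2.2.1 and TopHat2 2.0.12 and the hg38/GRCh38 build; the sources used here give no annotation, low-count filter, normalization factors or strand setting. The authors deposited 5 tables over 15074 genes. Per the file headers these hold, for each gene, the log2 fold change, the mean log2 CPM (the same in all 5), the score of a likelihood ratio test, its p-value and the false discovery rate. Recomputing the deposited p-value from the score (chi-square, 1 degree of freedom) left a difference of at most 7.36e-15.

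Symbols were found for 14974 identifiers, and GENCODE 29 gave positions and exon lengths for 15029. An SE was taken as the absolute log2 fold change over the square root of the score. FH-5xA minus FH-WT was the difference of their deposited log2 fold changes against the knockout, with a variance per group solved from the 5 squared SEs and Benjamini-Hochberg adjustment over 15072 genes; 2 genes were undefined. Fitted CPM set the mean of the 4 groups to the deposited mean. The derivation was run on simulated counts (Python 3.11.15, SciPy 1.17.1) with the same dispersion for every gene, taken as known. The deposited fits may differ in dispersion and depth, so that run does not check the p-values given here. Calls were made at 0.05.

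Members, lists and rules were chosen with earlier results of these data known. Named beside the members were, per list, up to 4 called genes with the smallest p in AGO2 knockout against parental and up to 2 in FH-5xA minus FH-WT; BIRC5, KRT80, FRMD6, NF2, STK3, STK4, SAV1, VGLL3, VGLL4 and the members' paralogues were named after their values were seen. A gene that this rule names is not reported here. Counts per library were not analysed here, so depth is unknown, no interval from counting error is given, and the values limit precision only through the SE. Alternatives were centring, a threshold of 0.01, a minimum mean of 1 log2 CPM, values relative to the 20 nearest genes, other variances for the difference and a geometric mean for levels.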

Additional observations from a re-analysis of the deposited data

Results flagged for a closer look

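Both target genes that were called between FH-5xA and FH-WT lie outside the 10 genes, and were picked out because their effects against the same knockout differ between the lines in a chi-square test adjusted over all genes. F3, tissue factor, was fitted at 107 CPM in FH-5xA, 82.1 in FH-WT, 105 in AGO2 knockout and 43.3 in parental cells. Its value against the knockout was 0.02 ± 0.08 in FH-5xA and -0.36 ± 0.08 in FH-WT in the authors' deposited tables, and FH-5xA minus FH-WT was 0.38 ± 0.08, with an adjusted p of 0.000821. MYOF, myoferlin, was fitted at 568 CPM in FH-5xA, 483 in FH-WT, 667 in AGO2 knockout and 509 in parental cells. Its value against the knockout was -0.23 ± 0.07 in FH-5xA and -0.46 ± 0.08 in FH-WT in the authors' deposited tables, and the difference was 0.23 ± 0.08, with an adjusted p of 0.0499. With the variance taken as the sum of both squared SEs, which counts the shared knockout libraries 2 times, the adjusted p was 0.245 for F3 and 0.636 for MYOF, and after centring it was 0.0592 for MYOF.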

How the results depend on the processing

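Of 656 alternative values of single genes 629 were the same, and 113 of 130 alternative counts stayed within 1.5 times. The same meant an unchanged side of the threshold for a fold change, and a shift under 1 SE of the group for a level. No called value changed its sign. Sign changes of values called neither way were counted as the same, such as TEAD1 in FH-5xA against parental, at -0.09 as reported and 0.11 relative to its 20 nearest genes. Relative to the 20 nearest genes, the members called were 5 (3 as reported) in AGO2 knockout against parental, with AMOTL1 and AJUBA added, and 1 (0) in FH-5xA minus FH-WT, where WWTR1 stood at 0.30 with an adjusted p of 0.0447. Under the same setting the Hippo list had 2 calls (1) in FH-WT against the knockout and 2 (0) in FH-5xA minus FH-WT, the factor list 1 (0) in that difference, and the target list 8 (5) in FH-5xA against the knockout and 5 (2) in the difference. This setting uses each gene's own SE and takes the median of its neighbours as exact. Shares of all genes called were computed for the threshold of 0.01 and for no other alternative setting. Whether all genes shifted alike under those settings was not tested. At a threshold of 0.01 the members called were 0 (1) in FH-WT against the knockout and 2 (4) in FH-5xA against parental, where CCN1 and AMOTL1 were lost; LATS2 in the knockout, at 0.0188, was lost too. At 0.01 FH-WT against the knockout gave 1 (3) factor and 1 (3) growth gene, FH-5xA against the knockout 3 (7) Hippo and 3 (5) target genes, and the difference 1 (2) target gene. The difference also gave 1 target gene after centring and 0 with summed variances. With a mean of at least 1 log2 CPM, FH-5xA against the knockout gave 1 (3) factor, since genes under that mean, such as VGLL3 at -0.28, were left out. Other than the stricter threshold, the wider variance and the minimum mean, which lose calls by construction, the cause was not tested. With the geometric mean, WWTR1 was fitted at 102, 88.7, 109 and 41.0 CPM in FH-5xA, FH-WT, AGO2 knockout and parental cells.

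No paired analysis was possible because the tables hold no value per library: neither the replicate block nor the leave-one-out fits planned for counts were run. Depth is unknown, and CCN1 has the widest SEs of the 8.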
